A study of Homo sapiens with 2 samples.

Results

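The genes described here encode 38 molecular chaperones and folding enzymes, chosen by name and sorted by the compartment in which their proteins work: 18 in the cytosol, 4 in mitochondria and 16 in the endoplasmic reticulum (ER). Each of the 38 symbols matched 1 of the 62700 genes of the count table, and all 38 had at least 100 counts summed over both libraries, the minimum that 11321 genes reached. RNA was measured in K562, an established erythroid-type cell line from a human chronic myeloid leukemia. Both groups carried dCas9-KRAB, a nuclease-dead Cas9 joined to a repressor domain that silences the promoter a guide RNA names. Both have the genotype label E50_dCas9-KRAB, and both sample titles also carry the term WT (wild type). What E50 stands for is not stated. One group received sgRNA_Control and the other sgRNA_SMC1A, a guide against a core subunit of the cohesin ring. Guides came by lentivirus together with a blue fluorescent marker, puromycin selection (1 µg/ml) ran from day 2 to day 6, and the cells brightest in blue were sorted for RNA. With 1 library for each guide there is no test across samples, and each difference below compares 2 libraries without a replicate check. The labels do not say whether the cells were 1 clone. In bulk RNA, fewer cells of a type and less RNA per cell cannot be told apart.

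Chaperones bind unfolded proteins and, mostly at the cost of ATP, let them fold. The cytosol uses HSP70 and HSP90 proteins with DnaJ co-chaperones, and the ring-shaped CCT complex (also called TRiC) for actin, tubulin and other proteins that need an enclosed chamber. Mitochondria use their own HSP70 and the HSPD1-HSPE1 chamber. The ER has an HSP70 (HSPA5, also called BiP), an HSP90 (HSP90B1), disulfide isomerases and the sugar-binding chaperones calnexin and calreticulin. Cytosolic chaperone genes are classic targets of the heat shock factor HSF1, and ER chaperone genes of the unfolded protein response factors ATF6 and XBP1. ATF6 acts through a promoter motif called the ER stress element (ERSE), and HSF1 through the heat shock element.

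Promoter sequences are shown first, because some genes of a compartment shared motifs. RefSeq promoters (GRCh38.p14, 250 bases before to 50 after each start) were given for 36 of the 38 genes, 49 promoters in all; CCT6A and PDIA3 were not matched. The ERSE, searched on both strands as CCAAT and CCACG with 9 bases of any kind between them, was found in 27 of 35116 promoters (0.0769%) and in at least 1 promoter of 0.0916% of all 27305 genes in the table. Among members it was in 6 of 15 matched ER genes, and in 0 of 17 cytosolic and 0 of 4 mitochondrial genes. ER chaperone genes are classic targets of ATF6 and XBP1, so matches to such motifs among them were likely in advance. These counts describe the promoters and test nothing. All motif searches here and below allowed no mismatch, so imperfect elements may have been missed. The matches are turned to the motif's own direction, with its fixed letters in capitals.
HSPA5: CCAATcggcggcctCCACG
HSP90B1, first match: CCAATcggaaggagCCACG
HSP90B1, second match: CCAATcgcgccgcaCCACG
PDIA6: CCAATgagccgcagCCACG
CALR: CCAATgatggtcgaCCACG
CANX: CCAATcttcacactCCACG
CRELD2: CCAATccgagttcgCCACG
The HSPA5 match starts 66 bases before the start of transcription, at chr9:125241391-125241409 (minus strand). That of CRELD2 starts 80 bases before, that of PDIA6 86 bases before 1 of its starts, and that of CALR 225 bases before. The 250 bases before the HSPA5 start (chr9:125241344-125241593, minus strand) show the match in its place, with the same letters in capitals.
HSPA5 promoter: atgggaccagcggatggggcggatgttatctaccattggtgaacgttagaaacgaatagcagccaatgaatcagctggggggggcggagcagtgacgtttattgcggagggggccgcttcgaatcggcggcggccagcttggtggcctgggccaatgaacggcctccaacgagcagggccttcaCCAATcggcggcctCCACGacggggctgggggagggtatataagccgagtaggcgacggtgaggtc

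A related motif, ERSE-II (ATTGG and CCACG with 1 base between), was found in 19 of 35116 promoters (0.0541%; 0.0696% of genes), among them 3 of the 15 matched ER genes and 0 genes of the other compartments.
SDF2L1: ATTGGtCCACG
HERPUD1: ATTGGgCCACG
HYOU1, at both of its matches: ATTGGaCCACG
HYOU1 also held the only match among the 36 genes to the motif TGACGTGG, called UPRE, which overlaps its farther ERSE-II match; 0.729% of all promoters and 0.927% of genes hold it. The bare CCAAT box, which also lies within each ERSE and, on the other strand, within each ERSE-II, was present in all 15 matched ER genes, 9 of 17 cytosolic genes and 0 of 4 mitochondrial genes, against 39.7% of all genes and 34.6% of all promoters. MANF, the gene with the highest ratio below, had no match to ERSE, ERSE-II or UPRE in this window, but 3 CCAAT boxes, in capitals in the 250 bases before its start (chr3:51385041-51385290, plus strand).
MANF promoter: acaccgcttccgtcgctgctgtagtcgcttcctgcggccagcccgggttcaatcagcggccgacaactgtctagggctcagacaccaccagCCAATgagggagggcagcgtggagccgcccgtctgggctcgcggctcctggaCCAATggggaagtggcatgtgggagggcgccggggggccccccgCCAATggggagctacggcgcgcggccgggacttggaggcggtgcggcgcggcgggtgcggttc

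The heat shock element, searched on both strands as GAA, TTC and GAA with 2 bases between neighbours, was found in 172 of 35116 promoters (0.490%; 0.608% of genes). It was present in 4 of 17 matched cytosolic genes, in HSPD1 of the 4 mitochondrial genes and in 0 of 15 ER genes. The search allowed no mismatch, so a promoter without a match may still hold an imperfect element. HSPA1A, HSPA1B and DNAJB1, called heat-inducible below, had no match. Cytosolic chaperone genes are classic HSF1 targets, so matches among them were likely in advance.
HSPA8, nearer match: GAAccTTCcaGAA
HSPA8, farther match: GAAagTTCcaGAA
HSP90AA1: GAAccTTCcgGAA
HSP90AB1, farther match: GAAtcTTCcaGAA
HSP90AB1, nearer match: GAAgcTTCcaGAA
DNAJA1: GAActTTCcaGAA
HSPD1, first of 2 overlapping matches: GAAagTTCtgGAA
HSPD1, second: GAActTTCcaGAA
The DNAJA1 match lies 3 bases past its start, and the HSPD1 matches lie before the second of its 2 listed starts. In the 250 bases before the HSPA8 start (chr11:123062137-123062386, minus strand) both elements are in capitals, the nearer one on the opposite strand.
HSPA8 promoter: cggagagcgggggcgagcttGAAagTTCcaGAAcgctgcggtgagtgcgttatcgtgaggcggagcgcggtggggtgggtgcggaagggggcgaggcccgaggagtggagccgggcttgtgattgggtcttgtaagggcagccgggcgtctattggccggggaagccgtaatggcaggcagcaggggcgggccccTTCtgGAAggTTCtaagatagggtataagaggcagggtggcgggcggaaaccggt

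The target of the guide was checked first. SMC1A stood at 460.4 CPM (counts scaled to a common library size) in the control library and at 16.3 CPM in the SMC1A library. The libraries held 18349209 and 16864207 counts, of which the 38 chaperone genes took 495971 (2.7%) and 413110 (2.45%). Intervals here and below cover counting error only. Of the 9 erythroid markers of K562 cells, all were present in both libraries, with summed levels of 14536 and 13361 CPM; HBG2 (log2 ratio -1.68) and HBZ (-1.56) were lowest against control, and HBE1 (0.62) was highest. Of 12 markers of other cells, LUM and MS4A1 had 0 counts in both libraries, and CD14 had 3 and 1 and DCN 2 and 6. Not all were so low: the lymphoid marker CD3D had 255 and 324 counts and the myeloid marker LYZ 319 and 428. The summed level of the 12 was 933.3 and 1013 CPM, most of it from the keratin genes KRT8 and KRT18. Among the other-cell markers with 100 counts, COL1A2 (-0.73) and KRT18 (-0.25) were lowest, and LYZ (0.42) and COL1A1 (1.84, on 64 and 233 counts) highest. The part of these markers in the chaperone differences was not tested.

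The 3 compartments differed. ER chaperone genes were mostly higher with the SMC1A guide, while nearly all cytosolic and all 4 mitochondrial ones were lower. The median log2 ratio, SMC1A guide over control guide, was 0.43 over the 16 ER genes, -0.42 over the 18 cytosolic genes and -0.68 over the 4 mitochondrial genes, beside -0.05 over all 11321 genes tested. At least 1.5-fold higher were 4 members, all of the ER, where 12.2% of all genes tested passed that limit. At least 1.5-fold lower were 5 members, 2 cytosolic and 3 mitochondrial, beside 9.06% of all genes. The whole counting interval of each of these 9 lay past the limit, as it did for 6.93% of all genes on the higher and 4.75% on the lower side. MANF passed 2-fold higher (5.11% of all genes) and 0 members passed 2-fold lower (2.32%). Ratios above 0 were found in 13 of 16 ER genes, 1 of 18 cytosolic genes and 0 of 4 mitochondrial genes, beside 45.7% of all genes; the other 54.3% were below 0.

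**Figure D1:**
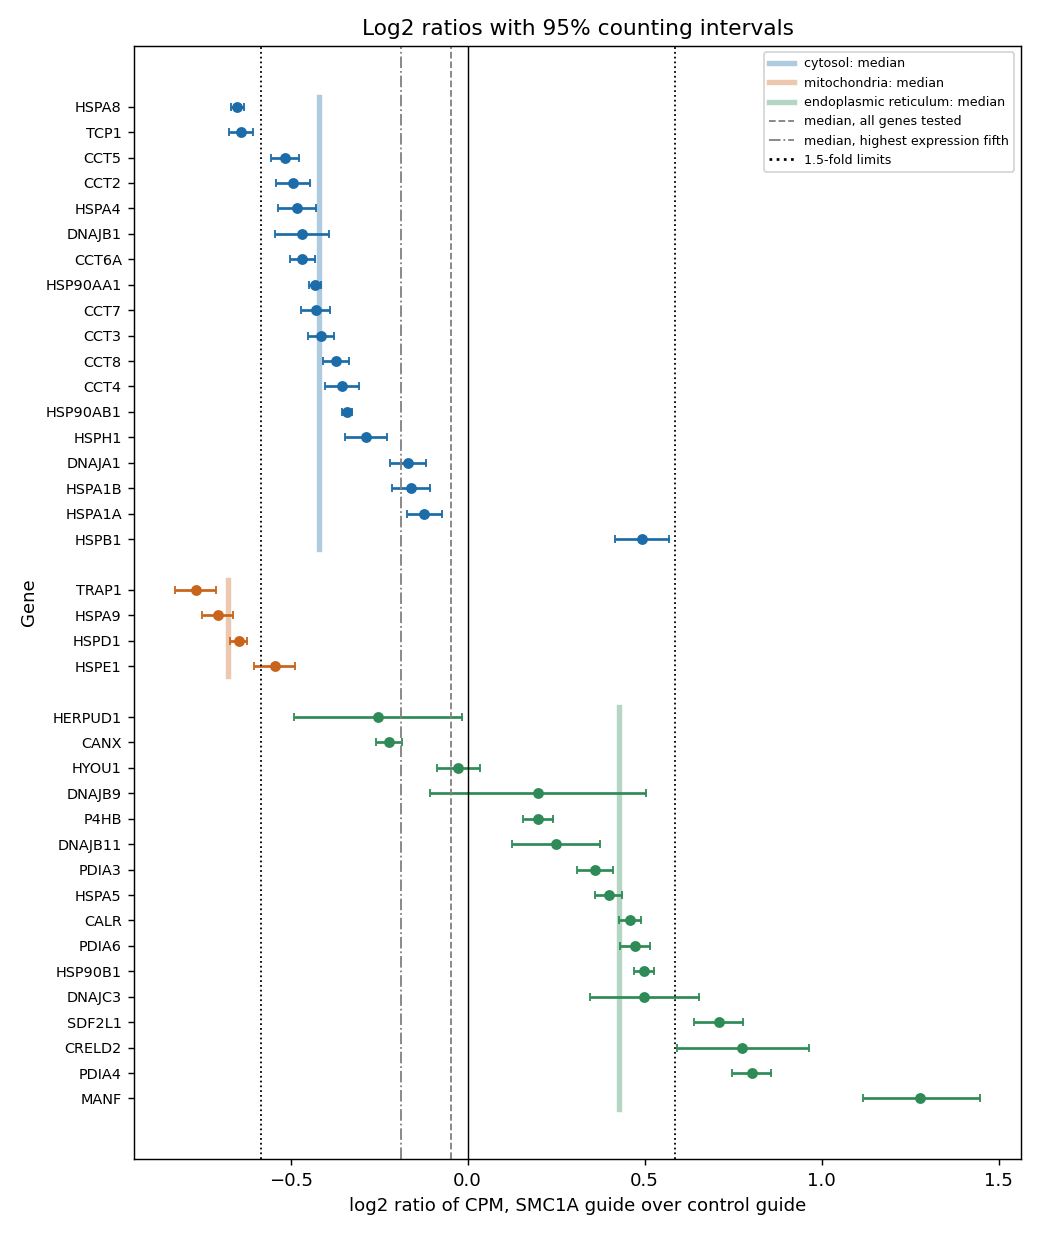
Log2 ratio of CPM (x axis, SMC1A guide over control guide) of each gene (y axis), grouped by compartment, with bars for the exact 95% counting interval, pale lines for compartment medians, dotted lines for the 1.5-fold limits, and dashed and dash-dotted lines for the medians of all genes tested and of the fifth of genes with the highest expression. The cytosolic genes other than HSPB1 and all 4 mitochondrial genes lie left of 0, and 13 of 16 ER genes lie right of it.

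Abundant genes as a whole had lower ratios, and this bears on how the compartments are read. In the fifth of genes with the highest expression, which held 32 of the 38 members, the median log2 ratio was -0.19, and 71.4% of its genes were below 0. When the running median of genes of like expression was subtracted, 0 members remained at least 1.5-fold lower and 11 were at least 1.5-fold higher: HSPB1 and 10 ER genes. Of all genes tested, 8.41% were that much lower and 12.1% that much higher after the same subtraction. The compartment medians were then 0.66 for the ER, -0.11 for the cytosol and -0.38 for mitochondria. Scaling by library totals alone gave 9 higher and 1 lower, against 16.5% and 5.65% of all genes tested, and raised the median of all genes by 0.13. The order of the 3 medians was the same under both settings, and the ER median lay above the cytosolic one by 0.85 with the main scaling, 0.85 by totals and 0.77 after subtraction.

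A count share within a library needs no scaling between libraries. Of all counts on the 38 genes, the ER genes took 18.2% in the control library (90115 of 495971; exact 95% interval 18.1 to 18.3) and 28.1% in the SMC1A library (116205 of 413110; 27.99 to 28.3). The cytosolic share was 69.8% and 62.7%, and the mitochondrial share 12.0% and 9.17%. Only the ER share was the larger one with the SMC1A guide. The shares together make up the whole, so lower cytosolic and mitochondrial counts raise the ER share by themselves. Counted per kilobase of transcript, the ER share was 17.7% and 28.3%, and without the gene with the most counts in each compartment (HSP90AB1, HSPD1 and HSP90B1) it was 20.5% and 30.9%. On the CPM scale, the summed level of the ER genes was 5136 and 6589, that of the cytosolic genes 19740 and 14686, and that of the mitochondrial genes 3393 and 2148.

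**Figure D2:**
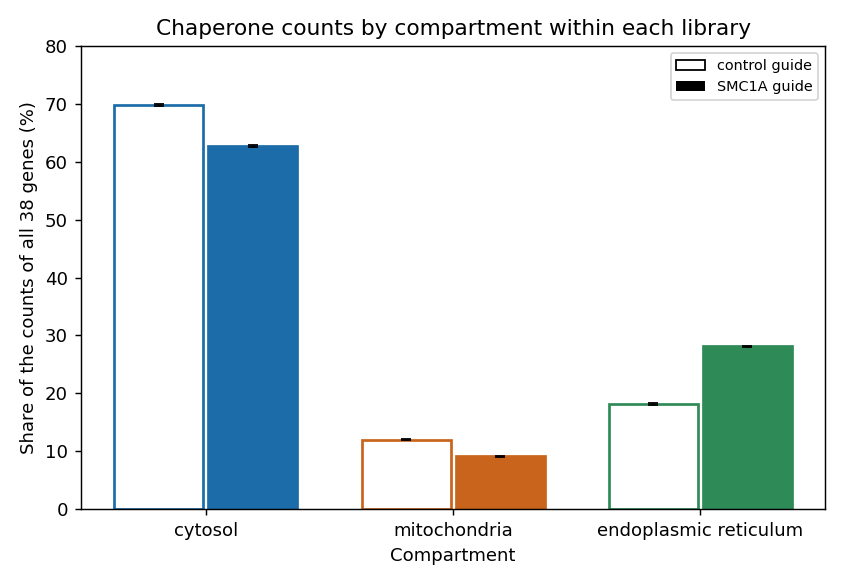
Share (y axis, percent) of the counts of the 38 genes held by each compartment (x axis) in the library with the control guide (open bars) and with the SMC1A guide (filled bars), with exact 95% counting intervals. The ER bars stand at 18.2% (open) and 28.1% (filled), and both other compartments take a smaller share with the SMC1A guide.

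Among cytosolic HSP70 genes, HSPA8, the constitutive HSP70 (chromosome 11, 123057489 to 123063230, GRCh38), had 59142 counts in the control library and 37875 in the SMC1A library, 3371 and 2147 CPM. Its log2 ratio was -0.65 (interval -0.67 to -0.63), 1.57-fold lower, the lowest of the 18. The heat-inducible copies HSPA1A and HSPA1B, neighbours on chromosome 6, lay much nearer their control level. HSPA1A stood at 396.9 and 364.7 CPM (log2 ratio -0.12, or 0.01 by library totals) and HSPA1B at 331.8 and 297.1 CPM (-0.16). The 2 genes are nearly identical, so the division of reads between them is uncertain; summed, they had 12785 and 11672 counts and a log2 ratio of -0.14 (-0.18 to -0.10). After subtraction of the expression trend both were above 0, at 0.14 and 0.07. The constitutive and the inducible genes thus had separate counting intervals. HSPA4 and HSPH1 encode large HSP70 relatives that act as nucleotide exchange factors. HSPA4 was at 385.7 and 276.1 CPM (log2 ratio -0.48) and HSPH1 at 290.3 and 237.8 CPM (-0.29).

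The DnaJ partners of cytosolic HSP70 differed from each other. DNAJB1, which is heat-inducible, was at 192.6 and 139.3 CPM (log2 ratio -0.47, interval -0.54 to -0.39), and DNAJA1, a farnesylated DnaJ protein, at 381.4 and 339.5 CPM (-0.17, or 0.09 after trend subtraction). DNAJB1 overlaps TECR on the opposite strand (1752 and 2205 counts), and the labels do not say whether the counting used strand. The cytosolic HSP90 genes had the most counts of all members. HSP90AB1, the constitutive form, was at 4853 and 3834 CPM (-0.34), and HSP90AA1, the more inducible form, at 3648 and 2707 CPM (-0.43). Within a library there were 0.752 HSP90AA1 counts per HSP90AB1 count with the control guide (interval 0.744 to 0.759) and 0.706 in the SMC1A library (0.698 to 0.714). HSPB1, a small heat shock protein gene that needs no ATP, was the only cytosolic member above 0. It stood at 134.7 and 189.5 CPM, a log2 ratio of 0.49 (0.42 to 0.57), or 0.62 by library totals, which is past the 1.5-fold limit.

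All 8 genes of the CCT ring were below 0 and lay close together. Their summed counts were 100961 and 73261 (5754 and 4154 CPM), a log2 ratio of -0.47 (interval -0.48 to -0.46). TCP1, the alpha subunit, was the lowest and the only one past 1.5-fold, at 1032 and 662.3 CPM (-0.64). It overlaps ACAT2 on the opposite strand (2209 and 1607 counts). CCT5 was at 701.9 and 490.7 CPM (-0.52), CCT2 at 490.7 and 348.4 CPM (-0.49), and CCT6A at 884.5 and 639.9 CPM (-0.47). CCT7, CCT3, CCT8 and CCT4 followed with log2 ratios of -0.43, -0.41, -0.37 and -0.35. The counting intervals of TCP1 (-0.67 to -0.61) and CCT4 (-0.40 to -0.31) did not meet, so these subunits differed by more than counting error. After trend subtraction the 8 genes lay between -0.33 (TCP1) and -0.07 (CCT8), and 0 passed 1.5-fold.

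The 4 mitochondrial genes had the lowest compartment median. TRAP1, the mitochondrial HSP90, had 6294 and 3714 counts, 358.7 and 210.6 CPM, and the lowest log2 ratio of all 38 members at -0.77 (interval -0.83 to -0.71), 1.70-fold lower. It overlaps DNASE1 on the opposite strand, which had 305 and 897 counts. HSPA9, the mitochondrial HSP70 or mortalin, was at 624.0 and 382.4 CPM (-0.71), 1.63-fold lower. HSPD1, which encodes the HSP60 chamber, was at 2061 and 1317 CPM (-0.65), and HSPE1, which encodes its HSP10 lid, at 348.5 and 238.8 CPM (-0.55, interval -0.60 to -0.49), just short of 1.5-fold. By library totals TRAP1 alone passed 1.5-fold, and after trend subtraction 0 of the 4 did, although all 4 were below 0 in both settings.

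HSPD1 and HSPE1 lie head to head on chromosome 2, and 104 bases separate their nearest listed starts (chr2:197500275-197500378, printed on the HSPE1 strand). Neither the CCAAT box nor the heat shock element has a match in this stretch, so it holds no capitals.
HSPD1-HSPE1 stretch: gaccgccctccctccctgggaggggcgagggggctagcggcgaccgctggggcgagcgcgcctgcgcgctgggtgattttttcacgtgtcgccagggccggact
Within a library, 5.92 HSPD1 counts per HSPE1 count were found with the control guide (interval 5.76 to 6.08) and 5.51 in the SMC1A library (5.34 to 5.70). Both genes were lower and their ratio moved by 0.932-fold. Reads on the annotated readthrough gene HSPE1-MOB4 came to 64 and 52 counts. HSPD1 has 18 named pseudogenes in the table, whose counts were 0.224% and 0.215% of those of HSPD1.

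In the ER, the HSP70 and HSP90 genes were both higher. HSPA5 (chromosome 9, 125234853 to 125241330) had 9691 counts in the control library and 12840 in the SMC1A library, 552.3 and 728.0 CPM, a log2 ratio of 0.40 (interval 0.36 to 0.44). HSP90B1, also called GRP94, was at 962.9 and 1360 CPM (0.50). HYOU1, the nucleotide exchange factor of HSPA5, was unlike both, at 249.8 and 245.3 CPM (-0.03, interval -0.09 to 0.03, or 0.10 by library totals); a difference was not detectable at this depth with the main scaling. The 3 ER DnaJ genes were all above 0. DNAJC3, which encodes an HSPA5 co-chaperone, was at 34.1 and 48.2 CPM (0.50, interval 0.35 to 0.65), and DNAJB11 at 55.2 and 65.6 CPM (0.25). DNAJB9 had 169 and 195 counts (log2 ratio 0.20), and its interval of -0.11 to 0.50 held 0. It overlaps PNPLA8 (387 and 514 counts) and THAP5 (574 and 597 counts), both on the opposite strand and both with more counts than DNAJB9. DNAJB11 overlaps TBCCD1 on the opposite strand (308 and 245 counts).

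All 4 disulfide isomerase genes were above 0, but over a wide range. PDIA4, which carries several thioredoxin-like domains, had 4207 and 7375 counts, 239.8 and 418.2 CPM, and was 1.74-fold higher (log2 ratio 0.80, interval 0.75 to 0.86). PDIA6 was at 419.3 and 581.8 CPM (0.47). PDIA3, which works with calnexin and calreticulin on glycoproteins, was at 318.8 and 409.2 CPM (0.36), and its 2 named pseudogenes held 85 and 151 counts. P4HB, the founding member of the family and a subunit of prolyl 4-hydroxylase, was at 487.0 and 558.7 CPM (0.20, interval 0.16 to 0.24).

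The sugar-binding pair parted. CALR, the soluble calreticulin, was at 846.1 and 1162 CPM (log2 ratio 0.46, interval 0.43 to 0.49), and CANX, its membrane-bound relative calnexin, at 742.4 and 636.2 CPM (-0.22, interval -0.26 to -0.19, or 0.09 after trend subtraction). Within a library there were 1.14 CALR counts per CANX count with the control guide (1.11 to 1.17) and 1.83 in the SMC1A library (1.79 to 1.87).

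The remaining ER genes ranged widely. MANF, an ER protein that can be secreted and binds HSPA5 (chromosome 3, 51385047 to 51389397), had 420 and 1026 counts, 23.9 and 58.2 CPM. It was 2.43-fold higher, with a log2 ratio of 1.28 (interval 1.12 to 1.45). CRELD2, another secretable ER protein, had 378 and 651 counts, 21.5 and 36.9 CPM, and was 1.71-fold higher (0.78, interval 0.59 to 0.96). It overlaps ALG12 on the opposite strand (204 and 212 counts). SDF2L1, which works with DNAJB11, was at 155.1 and 253.7 CPM, 1.64-fold higher (0.71, interval 0.64 to 0.78). HERPUD1, a membrane protein of ER-associated degradation rather than a folding enzyme, had the lowest ER ratio, with 320 and 270 counts (18.2 and 15.3 CPM) and a log2 ratio of -0.25 (interval -0.49 to -0.01). With MANF, PDIA4, CRELD2 and SDF2L1 at least 1.5-fold higher and HERPUD1, CANX and HYOU1 below 0, the 16 ER genes ranged from -0.25 to 1.28.

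**Figure D3:**
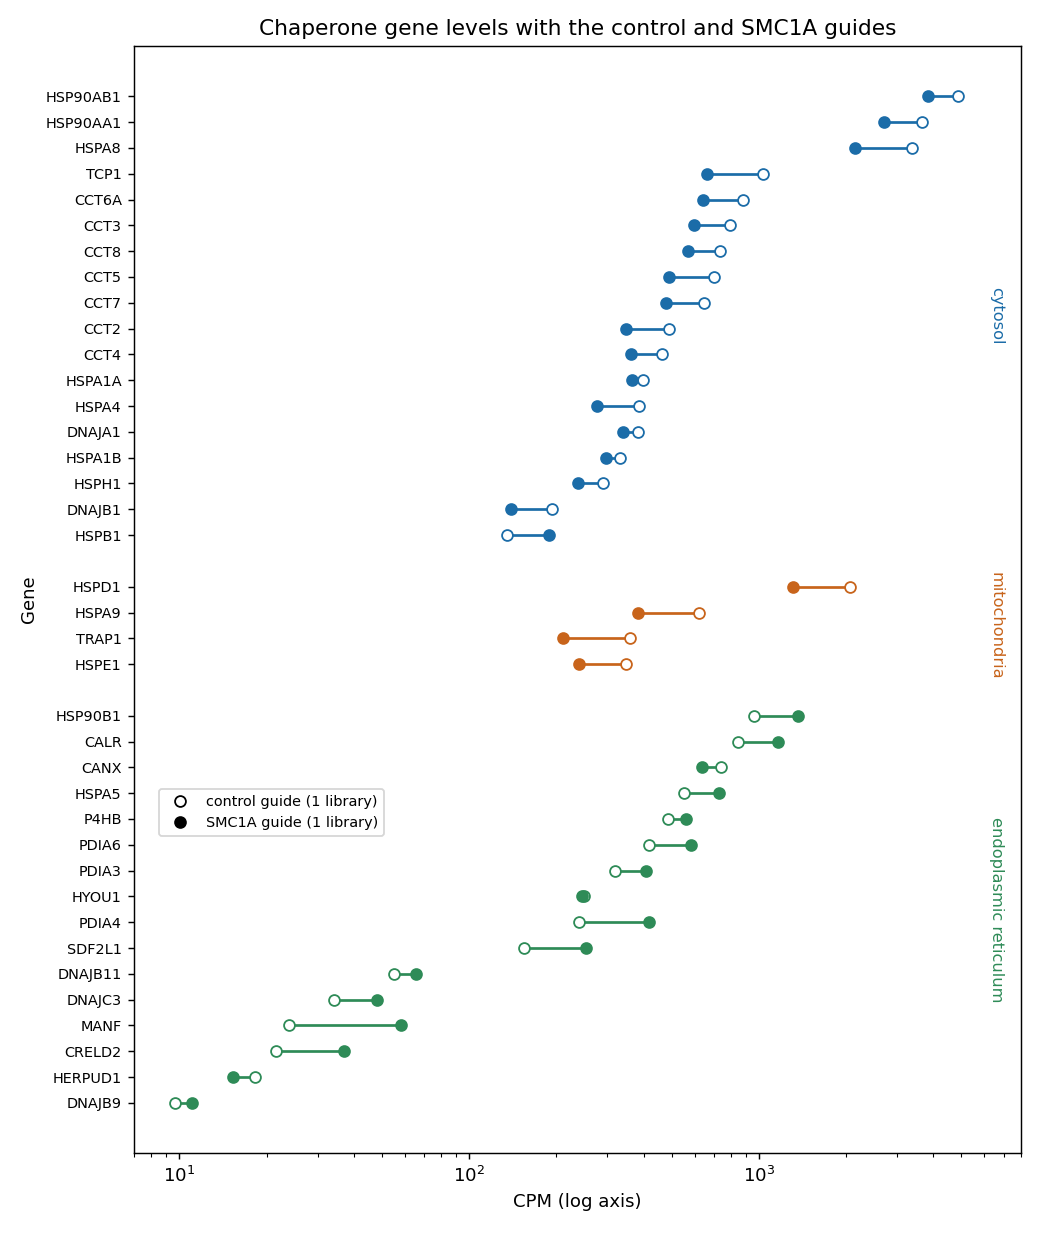
Level of each gene (y axis) in CPM (x axis, log scale) with the control guide (open circles) and the SMC1A guide (filled circles), 1 library each, ordered by control level within a compartment. The filled circle lies to the left for all cytosolic genes but HSPB1 and for all 4 mitochondrial genes, and to the right for 13 of 16 ER genes, with the longest line for MANF.

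Genes of the same family in different compartments were set against each other within each library, where scaling cancels. HSPA5 counts per HSPA8 count were 0.164 with the control guide (interval 0.160 to 0.167) and 0.339 in the SMC1A library (0.332 to 0.346), a 2.07-fold difference. HSPA5 counts per HSPA9 count were 0.885 and 1.90, a 2.15-fold difference. HSPA9 counts per HSPA8 count were much alike, at 0.185 (0.181 to 0.189) and 0.178 (0.174 to 0.183). For the HSP90 family, HSP90B1 counts per HSP90AB1 count were 0.198 and 0.355, and per HSP90AA1 count 0.264 and 0.503. TRAP1 counts per HSP90AB1 count were 0.0739 (0.0720 to 0.0758) and 0.0549 (0.0531 to 0.0568), so the mitochondrial and cytosolic HSP90 genes differed from each other too.

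Levels can be compared between genes only per length, here as CPM per kilobase of the principal transcript of GENCODE 29. With the control guide the highest were HSP90AB1 (1815), HSPA8 (1369), HSP90AA1 (1079) and HSPD1 (839.7), and CALR (444.6) was the first ER gene, in place 5. With the SMC1A guide HSP90AB1 (1434), HSPA8 (871.9) and HSP90AA1 (801.0) kept that order, CALR (610.7) lay above HSPD1 (536.3), and HSP90B1 (475.9) was the next. SDF2L1 moved from place 17 to place 7 and HSPA5 from place 24 to place 17, while CCT5 went from place 14 to place 24. DNAJB9 (3.55 and 4.07 CPM per kilobase) was the lowest of the 38 with both guides.

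Genes with either ER motif lay on both sides of 0. The 6 ER genes with an ERSE match ran from CANX at -0.22 to CRELD2 at 0.78, and the 3 with ERSE-II held both HERPUD1 at -0.25 and SDF2L1 at 0.71. Among other genes tested with an ERSE match in a promoter, 3 of 8 were above 0 (median log2 ratio -0.19), and with ERSE-II 6 of 9 (0.03), beside 45.7% of all genes tested and their median of -0.05. The 4 cytosolic genes with a heat shock element ran from HSPA8 at -0.65 to DNAJA1 at -0.17. Of the 34 other genes tested with that element, 15 were above 0 and the median was -0.10. These counts were chosen after the ratios were seen.

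Genes of related functions were compared next. Of all genes tested, 12.2% were at least 1.5-fold higher, 9.06% were as much lower, and 45.7% were above 0. Each count in the lists that follow is to be set beside these shares. A count near them in so short a list says nothing particular about that list. For cytosolic co-chaperones with the heat shock factors HSF1 and HSF2, 2 of 24 genes with 100 counts passed 1.5-fold on the higher side and 3 on the lower, around a median log2 ratio of -0.22. FKBP4, an HSP90-binding immunophilin, was at 271.7 and 159.1 CPM (-0.77) and BAG1, an HSP70 exchange factor, at 56.0 and 35.7 CPM (-0.65). At the other end, DNAJB4 was at 24.1 and 54.5 CPM (1.17) and DNAJB2 at 4.22 and 13.7 CPM (1.69). HSF1 itself, chosen after its value was seen, was at -0.18. Prefoldin, which hands unfolded actin and tubulin to the CCT ring, and CCT cofactors had a median of -0.16, and 2 of 9 were at least 1.5-fold lower but 0 as much higher. PFDN2 was at -0.73, PFDN6 at -0.64, PFDN1 at 0.06 and PDCL at 0.29.

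The mitochondrial quality control genes were lower, as the mitochondrial members were. Of 14 with 100 counts, 12 were below 0, 3 were at least 1.5-fold lower and 1 higher, with a median of -0.47 (-0.40 after trend subtraction). GRPEL2 and GRPEL1, the nucleotide exchange factors of HSPA9, were the lowest, at 38.2 and 19.7 CPM (-0.96) and at 67.9 and 39.4 CPM (-0.78). HSCB, an HSPA9 partner for iron-sulfur clusters, was at 0.08 on 99 and 105 counts, and the inner membrane protease gene SPG7 at 132.1 and 217.6 CPM (0.72).

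Further ER folding genes were mostly higher, as the ER members were. Of 22 with 100 counts, 19 were above 0, 4 passed 1.5-fold on the higher side and 0 on the lower, and their median was 0.30. SERPINH1, the collagen chaperone HSP47, was at 105.3 and 212.0 CPM (1.01), and QSOX1, a sulfhydryl oxidase gene, at 43.8 and 71.2 CPM (0.70). SEC63, a DnaJ protein of the translocation channel, was at -0.47 and TMX1 at -0.25. In ER-associated degradation, 13 of 15 were above 0 of which 4 passed 1.5-fold, while 0 were as much lower, and the median was 0.10. EDEM1, a mannosidase-like factor that marks misfolded glycoproteins, was at 20.9 and 43.9 CPM (1.07) and EDEM2 at 0.88, against UBE2G2 at -0.23 and the ubiquitin ligase gene SYVN1 at -0.22.

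ER translocation genes, which bring new proteins into the organelle, lay on both sides of 0 with the main scaling. Of 15, 7 were above 0 and 0 passed 1.5-fold in either direction, with a median of -0.01. The scaling moved this: by library totals 13 of 15 were above 0 and 2 at least 1.5-fold higher (median 0.12), and after trend subtraction 11 of 15 and 2 (median 0.09). Of all genes tested, 16.5% were that much higher by library totals and 12.1% after trend subtraction. SSR3 was at -0.51 and SRPRB at -0.41, against SSR1 at 0.53 and SSR2 at 0.57, so that subunits of the same translocon-associated complex stood at both ends.

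The sensors and transcription factors of the unfolded protein response also lay on both sides of 0. Of 12, 6 were above 0, 2 were at least 1.5-fold higher and 2 lower, with a median of 0.01. ATF6B was at 95.8 and 145.6 CPM (log2 ratio 0.60) and MBTPS1, the protease that cleaves ATF6, at 92.8 and 140.9 CPM (0.60). ATF4, the factor of the PERK branch, was at 311.8 and 179.2 CPM (-0.80), and its target TRIB3 at 73.6 and 29.8 CPM (-1.30). Chosen after their values were seen, ATF6 was at 137.9 and 165.9 CPM (0.27) and XBP1 at 77.1 and 54.7 CPM (-0.49). The count table has 1 value per gene and so does not show the spliced form of XBP1.

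**Figure D4:**
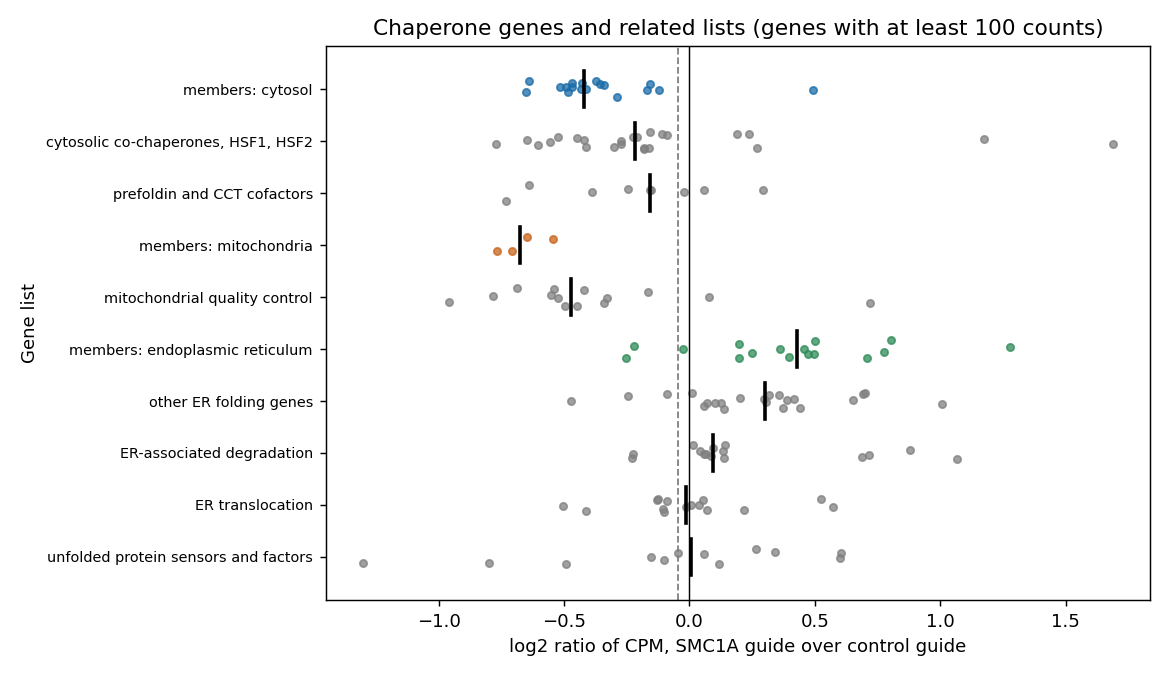
Log2 ratio of CPM (x axis) of the chaperone genes by compartment (coloured points) and of genes in related lists (grey points, y axis), for genes with at least 100 counts; black bars are list medians and the dashed line is the median of all genes tested. The ER members (median 0.43) and other ER folding genes (0.30) lie mostly right of 0, and the mitochondrial members (-0.68) and quality control genes (-0.47) mostly left.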

How the data were processed

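RNA with poly(A) tails was sequenced from K562 cells as 1 library per guide, in paired reads of 100 bases. The deposited table gives an unscaled estimated count for each gene (Salmon merged gene counts, per the file headers and name). The counts were rounded to whole numbers before use here. The submitters' processing notes list STAR 2.7.10a, Salmon 1.10.1, DESeq2 1.42.1 and the build GRCh38. What each did, and which annotation was used, is not given in the sources used here.

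TMM factors (edgeR 4.0.16 in R 4.3.3) scaled the libraries. Log2 ratios of CPM followed edgeR's formula with a prior count of 1, over genes with at least 100 counts. Intervals are exact (Clopper-Pearson) at 95%. A single library per guide allows no p-value. The calculation was tested on simulated counts. Coordinates and transcript lengths came from GENCODE 29 (GRCh38) and promoters from RefSeq (GRCh38.p14). Protein sequences were not used here. Other steps used Python 3.11.15, numpy 2.4.6, pandas 2.3.3 and scipy 1.17.1.

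Named genes were all members, SMC1A, and the 2 highest and 2 lowest genes with 100 counts of each related or marker list. Other named markers, factors and overlapping genes fall outside this rule. A marker gene that this rule picks is not reported here. The members, lists and limits were chosen with earlier results of these data known. The alternatives were 4 other scalings (size factors of DESeq2 1.42.0, totals of the libraries, the upper quartile, and TMM leaving out globin and mitochondrially encoded genes), a prior count of 0.25 or 5, subtraction of a running median over 501 genes of like expression, other filters and limits, and HSPA1A and HSPA1B summed.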

Additional observations from a re-analysis of the deposited data

How the results depend on the processing

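No paired analysis was possible because each guide had 1 library and the labels give no replicate numbers; for the same reason no library could be left out. With DESeq2 size factors, upper-quartile scaling, TMM without mitochondrial and globin genes, both other prior counts, no filter, a filter of 500 counts, and HSPA1A and HSPA1B summed, 4 members were at least 1.5-fold higher and 5 lower, as in the main scaling. Library totals gave 9 and 1, with medians of -0.29 (cytosol), -0.55 (mitochondria) and 0.56 (ER). Subtraction of the expression trend gave 11 and 0, medians of -0.11, -0.38 and 0.66, and an ER minus cytosol difference of 0.77; the cause was not tested. A 2-fold limit left 1 and 0. HSPA1A and HYOU1 changed sign by library totals, and these and CANX, DNAJA1 and HSPA1B after trend subtraction. No setting reversed the sign of a compartment median or of a member past 1.5-fold. The ER share of chaperone counts was 17.7% and 28.3% per kilobase, and 20.5% and 30.9% without the gene with the most counts in each compartment. Depth limits DNAJB9 and HERPUD1 most.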
